A study of Mus musculus with 18 samples.

Results

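Gene deserts are long stretches of chromosome without genes, and the chromatin regions described here are the open sites that lie inside them. Every peak of the 18 deposited lists on chromosomes 1 to 19, X and Y was merged with the peaks that it overlapped by at least 1 bp, which left 47338 regions with a peak in at least 2 mice. A region counted as a desert region when its midpoint lay more than 100 kb from every annotated NM or NR transcription start site (TSS) and outside every such transcript. Of the 47338 regions, 2918 (6.16%) met this rule, and the remaining 44420 served as the comparison. The distance rule used position only, so presence and strength of the peaks could be tested between groups. All regions also had to have a peak in at least 2 mice of any group, so a region open in 1 group alone entered through that group.

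The lists came from ATAC-seq, which cuts open chromatin with a transposase, on lung endothelial cells (ECs) of 18 FVB mice that all carried the Col1α1-GFP reporter, a transgene that marks collagen-producing cells. The 4 groups were Young Sham (2 months old, PBS, n = 5), Young Bleo (2 months old, bleomycin, n = 4), Aged Sham (18 months old, PBS, n = 4) and Aged Bleo (18 months old, bleomycin, n = 5). PBS or bleomycin, a drug that injures the alveolar wall and is followed by fibrosis, was given once into the trachea, the drug at 1 U/kg, and lungs were taken on day 30. ECs were sorted as CD31+ cells without CD45, EpCAM or GFP, so the lists show the cells that pass this gate and not 1 type of lung EC. Mice of both sexes were used, and the sex of each mouse was not given in the sources used here. Each list is a bulk measurement, and fewer cells with an open region cannot be told apart from a region that is less open in each cell.

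Open chromatin far from genes mostly consists of enhancers, which are short stretches that bind transcription factors and act on promoters over long distances, and of sites bound by CTCF, the protein that anchors chromatin loops. Large deserts often flank genes of development, and enhancers in them tend to be used in few cell types. In ECs, ETS factors such as ERG keep endothelial enhancers open, forkhead, GATA, SOX and MEF2 factors share many of these sites, and AP-1 (the FOS and JUN proteins) opens enhancers after injury and other signals. A nearest gene is named below to place each region, and no measurement here ties a region to a gene's activity.

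The median desert region lay 176440 bp from a TSS (quartiles 127843 and 284637 bp). The range ran from 100044 bp to 2483660 bp, with 285 regions beyond 500 kb and 55 beyond 1 Mb. When predicted transcripts (XM and XR) were added to the annotation, 1083 of the 2918 (37.1%) still met the rule, so a majority lay near or inside a predicted transcript. Desert regions were shorter than the other regions (median 397 against 444 bp). Their windows, the 200 bp around the strongest summit, were poorer in G and C (median 47% against 53.5%) and in CpG (2 against 4 per window). Repeats covered most of the window in 7.47% of desert regions and in 1.97% of the others, and 186 desert windows (6.37%, against 1.79%) were multi-copy, meaning that their words of 32 bases occurred at a median of more than 1 place in the genome assembly.

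Motifs were searched as fixed letters on both strands of these windows. CTCF was searched as CNAGGNGGC, ETS factors such as ERG as CAGGAAG and AP-1 as TGANTCA, whose letters read the same on both strands. The SOX family was searched as ACAATGG, the GATA family as AGATAAG, forkhead factors as TGTTTAC, the MEF2 family as CTAAAAATA and the TEAD family as ACATTCC. The CTCF letters were rarer in desert windows than in the others (5.52% against 9.89%, and 9.62% of all regions). All 7 other motifs were more frequent in the deserts than in all other regions, which include promoters. SOX letters stood in 9.94% of desert and 5.29% of other windows (5.58% of all), AP-1 letters in 12.1% and 8.40% (8.63% of all), and ETS letters in 23.1% and 19.7% (19.9% of all). The GATA letters were found in 5.59% against 3.22% (3.37% of all), forkhead in 6.48% against 4.32% (4.45% of all), TEAD in 4.35% against 2.91% (3.00% of all) and MEF2 in 0.788% against 0.588% (0.600% of all). Among the 10000 intergenic regions 10 to 100 kb from a TSS, the class most like the deserts, the shares were mostly closer. They were 10.4% for CTCF, 6.73% for SOX, 10.8% for AP-1, 21.9% for ETS, 4.36% for GATA, 5.56% for forkhead, 3.54% for TEAD and 0.82% for MEF2, the last above the desert share. These shares are descriptions without a test, and a match is not a bound site.

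The windows below, of 200 bases each, carry the patterns described in the sections that follow. All were read 5′ to 3′ on the plus strand of the RefSeq assembly GRCm38.p6, the mm10 build of the lists, with motif matches in capitals. That assembly comes from another strain than the FVB mice studied. The first 2 windows were open in every list, those near Alg10b and Tgfbr2 in all Young Bleo and no Young Sham mice, the one near Nr3c2 in Young Bleo mice alone, and the one near Armh4 in every young and no Aged Sham mouse. The Apob window was open in all 9 aged and no young mice. Those near Steap4 and Fermt1 were open in all 18 mice with a strength that differed between groups.
Gap43 region, chr16:42190221-42190420 (CTCF, ETS): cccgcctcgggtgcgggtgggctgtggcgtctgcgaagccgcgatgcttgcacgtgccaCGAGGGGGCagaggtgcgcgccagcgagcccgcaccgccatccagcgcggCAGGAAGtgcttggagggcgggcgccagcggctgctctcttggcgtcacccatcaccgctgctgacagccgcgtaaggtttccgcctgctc
Akr1e1 region, chr13:4771542-4771741 (AP-1, ETS, forkhead): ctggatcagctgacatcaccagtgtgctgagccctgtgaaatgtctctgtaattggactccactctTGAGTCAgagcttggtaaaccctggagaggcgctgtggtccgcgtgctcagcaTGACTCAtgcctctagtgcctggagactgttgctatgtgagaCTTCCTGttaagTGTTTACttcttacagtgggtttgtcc
Alg10b region, chr15:90109617-90109816 (AP-1, MEF2): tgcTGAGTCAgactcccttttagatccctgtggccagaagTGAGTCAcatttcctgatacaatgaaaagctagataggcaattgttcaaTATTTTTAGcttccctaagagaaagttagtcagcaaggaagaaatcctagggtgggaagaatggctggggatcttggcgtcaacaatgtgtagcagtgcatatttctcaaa
Tgfbr2 region, chr9:116376065-116376264 (AP-1): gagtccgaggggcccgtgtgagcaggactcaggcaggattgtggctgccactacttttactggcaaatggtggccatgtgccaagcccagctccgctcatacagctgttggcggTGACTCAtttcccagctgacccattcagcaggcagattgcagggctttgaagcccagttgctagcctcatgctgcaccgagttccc
Nr3c2 region, chr8:76347632-76347831 (SOX): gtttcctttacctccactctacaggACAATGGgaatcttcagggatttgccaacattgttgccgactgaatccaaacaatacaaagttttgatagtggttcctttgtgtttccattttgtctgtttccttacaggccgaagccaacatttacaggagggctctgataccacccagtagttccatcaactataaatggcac
Armh4 region, chr14:49664619-49664818 (ETS, AP-1): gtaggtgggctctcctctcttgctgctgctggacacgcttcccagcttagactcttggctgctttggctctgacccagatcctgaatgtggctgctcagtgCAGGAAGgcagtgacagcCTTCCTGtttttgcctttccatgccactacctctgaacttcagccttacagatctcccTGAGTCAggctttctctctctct
Apob region, chr12:7636806-7637005 (TEAD): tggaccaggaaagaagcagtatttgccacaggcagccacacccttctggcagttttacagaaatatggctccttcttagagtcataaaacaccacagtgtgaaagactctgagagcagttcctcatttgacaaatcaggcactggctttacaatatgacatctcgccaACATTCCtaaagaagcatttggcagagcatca
Steap4 region, chr5:7660886-7661085 (AP-1, MEF2): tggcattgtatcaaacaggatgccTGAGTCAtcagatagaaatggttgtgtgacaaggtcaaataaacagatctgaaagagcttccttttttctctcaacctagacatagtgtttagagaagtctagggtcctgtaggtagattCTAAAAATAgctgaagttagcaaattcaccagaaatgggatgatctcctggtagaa
Fermt1 region, chr2:133141498-133141697 (SOX and forkhead, overlapping): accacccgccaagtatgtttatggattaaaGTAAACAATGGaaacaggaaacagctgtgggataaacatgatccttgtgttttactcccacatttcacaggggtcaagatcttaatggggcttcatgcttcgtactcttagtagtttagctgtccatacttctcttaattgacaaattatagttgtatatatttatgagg

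The 18 lists held 21050 to 40883 nuclear peaks each, and between 828 (Aged Bleo 4) and 2146 (Young Bleo 3) desert regions had a peak. Promoters of the endothelial genes Cdh5, Tie1, Kdr, Erg, Cldn5 and Egfl7 had a peak in all 18 lists, Pecam1 in 17 and Tek in 14. None of 6 leukocyte or 5 epithelial marker promoters had a peak in any list. Of 5 fibroblast markers only Pdgfra did (18 lists), and of 4 mural markers only Notch3 did (1 list). The sequencing lane written in the names of the lists followed the groups closely. Lane 8 held Young Sham 1 to 5 and Young Bleo 4, lane 7 held Young Bleo 1 to 3 and Aged Sham 1 to 3, and lane 6 held Aged Sham 4 and Aged Bleo 1 to 5. No lane held Young Sham together with Aged Sham mice, so the sham groups can be compared beside the lane only through the Young Bleo mice, of which 1 shared a lane with Young Sham. Peak lists give no read depth, and the lists were not scaled to each other.

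Desert regions were called, meaning that a list had a peak in them, in a smaller share of Aged Sham mice and a larger share of Young Bleo mice than in Young Sham mice, with wide spread. In Young Sham mice 65.2, 62.4, 56.9, 63.5 and 49.3% of the 2918 regions had a peak (59.5% ± 6.46, SD, n = 5). The 4 Young Bleo mice had 62.2, 71.7, 73.5 and 64.0% (67.8% ± 5.61, n = 4). Aged Sham mice ranged lower, at 39.3, 52.7, 37.3 and 53.5% (45.7% ± 8.59, n = 4), and overlapped the Young Sham range through mice 2 and 4. Aged Bleo mice split widely, at 69.6, 70.3, 50.9, 28.4 and 44.2% (52.7% ± 17.8, n = 5), with mice 1 and 2 at the Young Bleo level and mouse 4 the lowest of all 18.

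None of the 5 group differences in this share passed the test after adjustment. Aged Sham mice had 13.8 percentage points fewer desert regions called than Young Sham mice (p = 0.0397 in an exact permutation test, two-sided, and 0.198 after adjustment over the 5 comparisons, n = 4 and 5). Young Bleo mice had 8.37 points more than Young Sham mice (exact p = 0.119, adjusted 0.225). Aged Bleo mice differed by 6.95 points from Aged Sham (exact p = 0.484, adjusted 0.484), by -15.2 points from Young Bleo (exact p = 0.135, adjusted 0.225) and by -6.81 points from Young Sham (exact p = 0.460, adjusted 0.484). The age difference moved with the number of peaks in a list. With each list cut to its 21050 strongest peaks it was 0.269 points and turned direction, while the Young Bleo difference was 3.28 points (exact permutation test, adjusted p = 0.0397). Within lane 8, Young Bleo 4 stood 4.50 points above the 5 Young Sham mice (exact p = 0.5). Within lane 7 the Young Bleo mice stood 26 points above the Aged Sham mice (exact p = 0.1, the smallest that 3 against 3 allows), and within lane 6 Aged Bleo and Aged Sham differed by -0.864 points (exact p = 1). With the lane as a term beside the group, Aged Sham stood 21.5 points below Young Sham (difference -21.5, SE 16, exact permutation within lanes p = 0.167, adjusted 0.562), so the estimate had a wide error. On this scale Aged Bleo differed by -26.9 points from Young Bleo (SE 16, exact p within lanes 0.225, adjusted 0.562) and by -22.4 points from Young Sham (SE 20.5, exact p 0.339, adjusted 0.565), larger than without the lane.

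**Figure D1:**
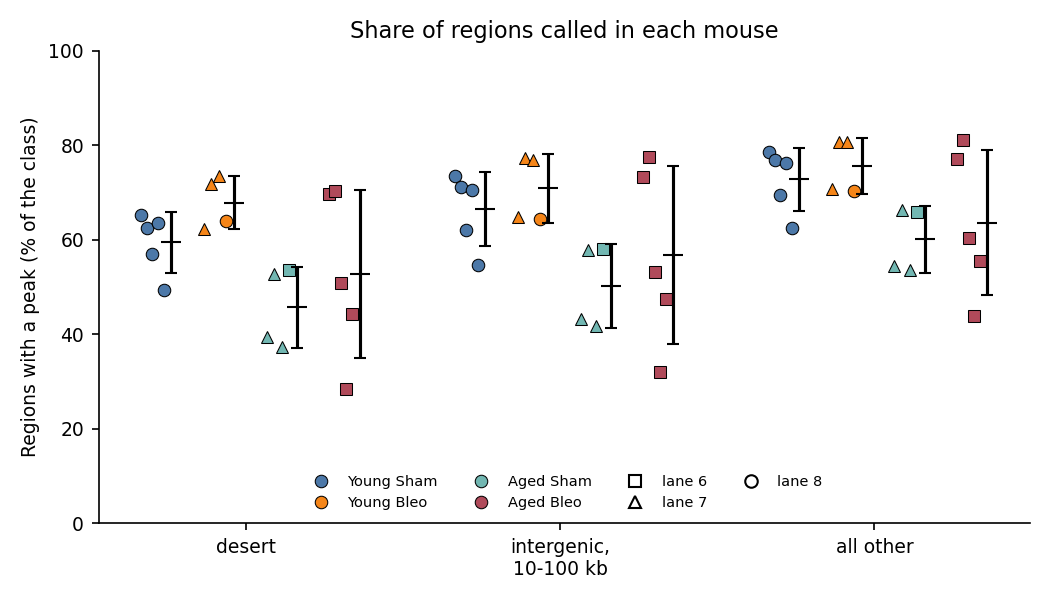
Share of desert regions, of intergenic regions 10 to 100 kb from a TSS and of all other regions that had a peak in each mouse, in percent of the class. Each symbol is 1 mouse, colours are the groups, shapes the lanes, and bars the mean and SD. Desert regions averaged 59.5% in Young Sham and 67.8% in Young Bleo mice, and Aged Bleo mice spread from 28.4 to 70.3%.

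Compared with the rest of the genome in the same mouse, desert regions were called more often in Young Bleo than in Young Sham mice. The share of desert regions called was lower than the share of other regions called in all 18 mice, by 11.6 points on average (SD 3.03, exact sign-flip test p = 7.63e-06, the smallest that 18 mice allow). In Young Sham mice the deficit was 13.4, 14.5, 12.6, 12.7 and 13.2 points (mean desert minus other -13.3 ± 0.742, n = 5). Young Bleo mice had deficits of 8.54, 9.04, 7.12 and 6.29 points (mean -7.75 ± 1.26, n = 4). The groups did not overlap, and the difference of 5.53 points was larger than the spread between mice (exact permutation p = 0.00794, the smallest that 4 against 5 allows, adjusted over 5 comparisons 0.0397). Desert regions made up 5.57% ± 0.0952 of all called regions in Young Bleo and 5.09% ± 0.103 in Young Sham mice, which is the same contrast seen as a share (exact permutation p = 0.00794, adjusted 0.0397).

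Aged mice had a deficit of the Young Sham size or in between. Aged Sham mice stood at -15.1, -13.7, -16.3 and -12.4 points (mean -14.3 ± 1.69, n = 4) and overlapped Young Sham (difference -1.07, exact p = 0.230, adjusted 0.230). Aged Bleo mice stood at -7.50, -10.8, -9.50, -15.5 and -11.4 points (mean -10.9 ± 2.97, n = 5). They overlapped every other group. Their differences were 3.40 points from Aged Sham (exact p = 0.0952, adjusted 0.159), -3.19 from Young Bleo (exact p = 0.0714, adjusted 0.159) and 2.33 from Young Sham (exact p = 0.135, adjusted 0.169). The difference between Bleo and Sham was 2.13 points larger in young than in aged mice, which the exact permutation test did not tell apart from 0 (p = 0.339, adjusted over 3 measures 0.915). Without Aged Bleo 4, the list with the fewest peaks, the differences from Aged Sham and Young Sham were 4.55 and 3.48 points (exact permutation test, adjusted p = 0.0476 and 0.0198).

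The young contrast rests on the smallest possible p in a small design. It was 3.40 points with equal numbers of peaks (exact permutation test, adjusted p = 0.0397), and over all samples left out in turn it ranged from 5.04 to 5.96 points. With 1 of its own 9 mice left out, p always stood at the smallest that the reduced design allows in the exact permutation test (0.0286 for 4 against 4 and 0.0179 for 3 against 5 mice). After adjustment that was 0.143 and 0.0893, so beside the p-values of the other comparisons these reduced designs could not keep the call, and they say nothing of its stability. By doubling the smaller tail in place of using the absolute difference, the adjusted p was 0.0794. Within lane 8, where both treatments were present, Young Bleo 4 stood 6.98 points above the Young Sham mice (exact p = 0.167, the smallest that 1 against 5 allows). With the lane as a term the young contrast is this same value (6.98, SE 2.07, exact permutation within lanes p = 0.167, adjusted 0.583), and this design cannot pass. Lane 7 showed 6.77 points between Young Bleo and Aged Sham (exact p = 0.1), and lane 6 showed 1.43 points between Aged Bleo and Aged Sham (exact p = 0.667).

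Set against the 10000 intergenic regions 10 to 100 kb from a TSS instead of all others, deserts were again lower in all 18 mice, with a mean difference of -4.71 points (SD 2.15). On this scale Young Bleo exceeded Young Sham by 3.89 points (exact permutation p = 0.0317, adjusted 0.0794) and Aged Sham exceeded Young Sham by 2.40 points (exact p = 0.0317, adjusted 0.0794), so neither held after adjustment.

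**Figure D2:**
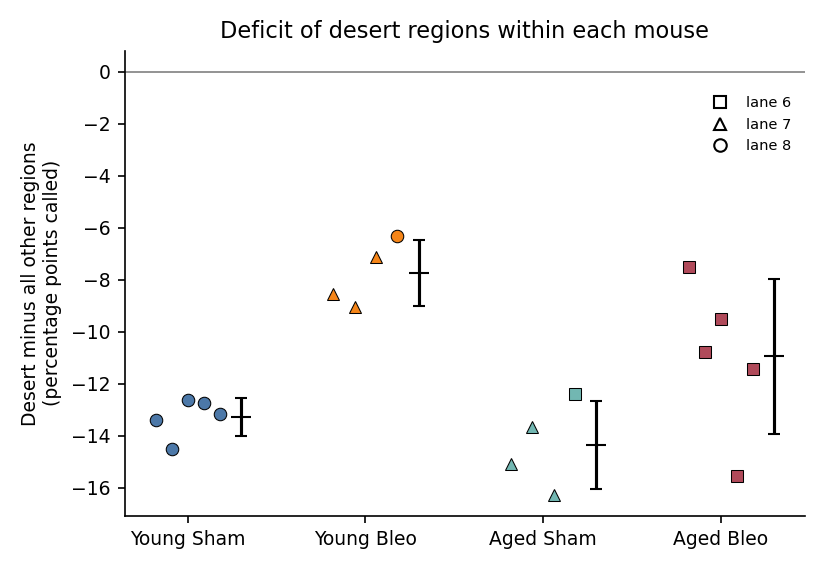
Share of desert regions called minus share of all other regions called in each mouse, in percentage points. Symbols are mice, shapes are lanes, bars are the mean and SD. Young Bleo mice lie between -9.04 and -6.29, above all Young Sham mice, which lie between -14.5 and -12.6.

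Regions within 10 kb of a TSS were open in every mouse more often than any farther class, and the difference between Young Bleo and Young Sham was larger in the farther classes, although no class passed the test. Intergenic regions were split into 7 classes by distance to the nearest TSS. Of 8414 regions within 10 kb, 55.9% had a peak in all 18 mice. The share was level from there to 200 kb, at 23.8% of 4072 regions at 10 to 25 kb, 23.7% of 3211 at 25 to 50 kb, 24.5% of 2717 at 50 to 100 kb and 23.3% of 1693 at 100 to 200 kb. It was 18.6% of 817 at 200 to 400 kb and 16.9% of 408 beyond 400 kb. Young Bleo minus Young Sham was 2.04 points within 10 kb, 5.62 at 50 to 100 kb, 6.58 at 100 to 200 kb, 10.8 at 200 to 400 kb and 10.9 beyond 400 kb. The last 2 had exact permutation p = 0.0397 and 0.0159, and 0.139 and 0.111 after adjustment over the 7 classes, so none passed. The Aged Sham difference from Young Sham was -8.87 points within 10 kb and then, from 10 kb outward, -17, -16.3, -14.8, -15.4, -13 and -8.48. Beyond 10 kb this loss was mostly smaller in the farther classes (exact permutation test, adjusted p = 0.0794 beyond 400 kb and 0.0648 in every other class). The 100 desert regions just above 100 kb, up to 102857 bp away, had a peak in 58.8% of lists on average. The 100 intergenic regions just below 100 kb, down to 97441 bp, also had one in 58.8%.

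**Figure D3:**
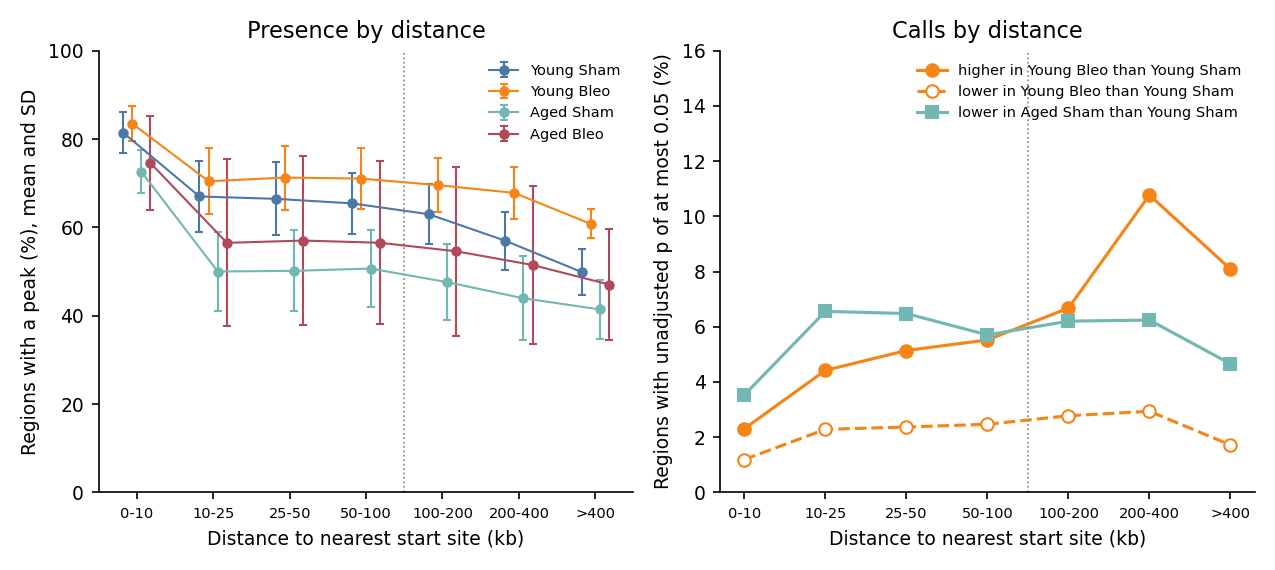
Left, share of intergenic regions with a peak (mean and SD over mice) by distance to the nearest TSS in kb, for each group. Right, share of the regions of each class that passed an unadjusted Fisher p of at most 0.05 in the direction named. The dotted line marks 100 kb, the start of the deserts. The share higher in Young Bleo runs from 2.31% within 10 kb to 10.8% at 200 to 400 kb, and is 8.09% beyond 400 kb.

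Most desert regions were open in some mice only. A peak in all 18 mice was found for 615 of the 2918 (21.1%, against 37.9% of the other regions), and 355 (12.2%, against 7.94%) had a peak in just 2 mice. Presence was compared region by region with Fisher's exact test on the mice with and without a peak. No region passed adjustment over the 47338 regions in any of the 5 comparisons (smallest adjusted p 0.535 for Young Bleo and 0.786 for Aged Sham, each against Young Sham, and 1 for the other 3). The smallest p that Fisher's exact test gave here was 0.00794, which passes such an adjustment only if very many regions reach it. The test could thus hardly call single regions, and nothing is concluded from this outcome. With limma on within-list percentiles, taking 0 where a list had no peak, an adjusted p of at most 0.05 over all regions was reached by 129 desert regions higher (4.42%, against a background of 1.75% of all regions) and 88 lower (3.02%, background 1.7%) in Young Bleo than in Young Sham. In Aged Sham against Young Sham 9 were higher (0.308%, background 0.0613%) and 92 lower (3.15%, background 2.15%). The same fit gave 0 in both directions for Aged Bleo against Aged Sham (background 0.0634 and 0.0317%), where 122 and 78 had an unadjusted p of at most 0.05 (4.18 and 2.67%, all regions 5.23 and 3.18%). Aged Bleo against Young Bleo had 42 lower (1.44%, background 0.737%) and 0 higher (background 0.019%), where 49 higher had an unadjusted p of at most 0.05 (1.68%, all regions 1.18%). Aged Bleo against Young Sham had 194 lower (6.65%, background 5.37%) and 11 higher (0.377%, background 0.494%). With the lane as a term in this fit, 32 desert regions were higher and 3 lower in Young Bleo (1.10 and 0.103%, all regions 0.604 and 0.0634%). In Aged Sham 11 were higher and 3 lower (0.377 and 0.103%, all regions 0.211 and 0.0655%), so the balance of the adjusted calls of the sham groups turned. At an unadjusted p of at most 0.05 it did not turn, with 73 desert regions higher and 236 lower in Aged Sham (all regions 625 and 3626). In that fit no desert region was lower in Aged Bleo than Young Sham (0 in place of 194, all regions 0.0591%, with 174 at an unadjusted p of at most 0.05) and 5 were higher. Against Young Bleo 9 were lower (0.308%, all regions 0.222%) and against Aged Sham 7 (0.24%, all regions 0.165%). The counts below use an unadjusted p of at most 0.05 and are read against the same share over all regions, the background, since some such regions occur in any set of this size.

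Between Young Bleo and Young Sham mice, 234 desert regions (8.02%) were called more often in Young Bleo, against a background of 3.98% of all regions. In the other direction were 78 (2.67%, background 1.96%). Of the 234, 182 had a peak in no Young Sham mouse and 125 had one in all 4 Young Bleo mice, and 73 had both. With equal numbers of peaks the count was 130 of the 1686 desert regions that still had a peak (7.71%, background 3.26%), and leaving out 1 of the 9 mice, which makes the threshold harder to reach, lowered it to as few as 77. The same 234 regions, chosen by this contrast, can be followed in the aged mice that the choice did not use. There 25.6 and 25.2% of them were called in Aged Sham 2 and 4, against 2.99 and 1.28% in Aged Sham 1 and 3. In Aged Bleo the shares were 76.9, 70.1, 17.9, 2.14 and 12.8%, so mice 1 and 2 had most of the regions and mice 3, 4 and 5 had few. The aged mice with more of these regions also had longer lists. These held 37595, 40883, 29049, 21050 and 26886 peaks in Aged Bleo 1 to 5. Aged Sham 2 and 4 had 32220 and 31366 peaks, and Aged Sham 1 and 3 had 26148 and 25793. Whether list size has a part in these shares was not tested. A total of 144 of the 234 had a peak in no Aged Sham mouse and 32 in no Aged Bleo mouse.

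The regions with the clearest gain in Young Bleo lay near Alg10b, Cd180 and Tgfbr2. The Alg10b region (chr15:90109410-90110003, 114604 bp from the TSS of this gene of N-glycan assembly), whose window holds AP-1 and MEF2 letters, had no peak in any Young Sham mouse. Its fold enrichment, the pileup over the local background as MACS2 gives it, was 17.6, 16.2, 18.3 and 11.0 in the 4 Young Bleo mice. In aged mice it had a peak in Aged Sham 2 and 4 (8.78 and 9.41) and in Aged Bleo 1, 2, 3 and 5 (20.5, 22.3, 4.75 and 4.67). The aged mice lay on both sides, while the separation of the young groups is what the region was chosen for.

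Near Tgfbr2, which encodes the type II receptor for TGF-β, a region 200831 bp away (chr9:116375989-116376398, AP-1 letters) was likewise silent in Young Sham mice. Fold enrichment was 10.1, 13.2, 14.2 and 12.8 in Young Bleo, and the region had a peak in no Aged Sham mouse and in Aged Bleo 1 and 2 only (11.5 and 10.3). A region 445896 bp from Cd180, a receptor-like protein of B cells (chr13:102247402-102247899), had 17.1, 18.3, 10.8 and 7.69 in Young Bleo and again none in Young Sham. It was also called in Aged Sham 2 and 4 (8.78 and 8.59) and in Aged Bleo 1 and 2 (16.8 and 20.1). All 3 regions kept an unadjusted Fisher p of at most 0.05 with equal numbers of peaks (Fisher's exact test p = 0.00794 for 4 against 5 mice as deposited).

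Loss in Young Bleo was seen near Ttll7, Ipmk and Dlk1. The Ttll7 region (chr3:147878692-147879062) lies 1026510 bp from this tubulin-modifying enzyme. It had a fold enrichment of 13.7, 11.6, 8.99, 13.7 and 5.5 in Young Sham and no peak in Young Bleo, and it was called in Aged Sham 2 and 3 (3.70 and 10.9) and Aged Bleo 3 (6.64). The Dlk1 region (chr12:109272125-109272513, 181136 bp from this Notch-related gene, MEF2 letters) had 11.0, 9.76, 7.55, 9.16 and 5.08 in Young Sham and no peak in any of the 9 bleomycin-treated mice, with peaks in Aged Sham 1 and 3 (5.44 and 8.42). The Ipmk region (chr10:71462378-71462773, an inositol phosphate kinase gene 114813 bp away, forkhead letters, 75.5% of the window repeat) had 8.27 to 10.2 in Young Sham and none in Young Bleo. With equal numbers of peaks the Dlk1 and Ipmk regions no longer reached the threshold (Fisher's exact test p = 0.167 for both), while the Ttll7 region did.

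Loss outnumbered gain when Aged Sham was compared with Young Sham. The counts were 175 lower (6%, background 4.9%) and 6 higher (0.206%, background 0.264%). With equal numbers of peaks these counts were 31 (1.84%, background 1.38%) and 27 (1.60%, background 1.22%), so the excess of losses was not seen at equal list sizes. Leaving out 1 of the 9 mice, again with a threshold that is harder to reach, lowered the 175 to as few as 37. Of the 175, 101 had a peak in no Aged Sham mouse. In mice the choice did not use, Young Bleo mice had 46.9, 62.9, 73.1 and 63.4% of the 175 called and Aged Bleo mice 49.7, 48.6, 30.9, 4.00 and 20.6%.

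The leading losses lay near Armh4, Rab28 and Pax3. The Armh4 region (chr14:49664464-49664931, 118685 bp from the gene, ETS and AP-1 letters) had a peak in all 9 young mice, with fold enrichment of 7.95, 11.9, 8.27, 8.78 and 7.19 in Young Sham and 7.83, 8.69, 11.3 and 11.6 in Young Bleo. It had none in Aged Sham and was called in Aged Bleo 1, 2 and 3 (7.70, 5.61 and 5.81). The Rab28 region (chr5:41340592-41341044, a small GTPase gene 366873 bp away) had 6.07 to 15.5 in Young Sham and no peak in Aged Sham. The Pax3 region (chr1:77876541-77876956, 320387 bp from this developmental transcription factor) had 6.35 to 9.35 in Young Sham, and of the other 13 mice only Aged Bleo 5 had a peak (5.61). None of these 3 passed with equal numbers of peaks (Fisher's exact test p = 0.444, 0.167 and 1).

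Gains with age were few, and those near Apob, Slitrk5 and Hs3st1 led the 6 as deposited. The Apob region (chr12:7636585-7637090, 340839 bp from the gene of apolipoprotein B, TEAD letters) had a peak in all 9 aged and none of 9 young mice. Fold enrichment was 4.95, 8.32, 9.91 and 8.67 in Aged Sham and 5.00, 5.61, 7.59, 5.38 and 5.61 in Aged Bleo. These are weak peaks, and with equal numbers of peaks the contrast of Aged Sham and Young Sham lost the threshold (Fisher's exact test p = 0.167). The Slitrk5 region (chr14:111249540-111249915, 425387 bp away) had 6.93, 10.6, 5.94 and 10.3 in Aged Sham and no peak in Young Sham, but was also called in 3 Young Bleo and 4 Aged Bleo mice. The Hs3st1 region (chr5:39745805-39746202), 101373 bp from this heparan sulfate sulfotransferase gene, had 10.5, 11.4, 9.91 and 8.59 in Aged Sham and a peak in 1 of 5 Young Sham mice (8.39). It was also called in Young Bleo 4 (4.40) and in Aged Bleo 2 to 5 (7.01 to 8.89). With equal numbers of peaks the Slitrk5 and Hs3st1 regions did reach it, the Hs3st1 region with a peak in all 4 Aged Sham and no Young Sham mouse (Fisher's exact test p = 0.00794) and the Slitrk5 region with a difference of 75 points (p = 0.0476).

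Few desert regions passed the threshold between Aged Bleo and Aged Sham. Against Aged Sham, 21 were called more often in Aged Bleo (0.720%, background 0.475%) and 11 less often (0.377%, background 0.41%), which is close to the background. The balance turned to 9 higher and 14 lower with equal numbers of peaks (0.534 and 0.830%, all regions 0.483 and 0.813%). It turned to 15 higher and 25 lower when a peak had to cover 50% of the region (0.514 and 0.857%, all regions 0.264 and 0.911%). All regions turned the same way in both settings. A region 299420 bp from Dcdc2c (chr12:28248756-28249077) had no peak in Aged Sham and 10.8, 7.95, 6.17, 4.86 and 6.08 in Aged Bleo, and it was also open in 8 of the 9 young mice. A region near Gm826 (chr2:159732473-159732786) had 7.42, 6.47, 5.45 and 5.32 in Aged Sham and none in Aged Bleo. Neither held with equal numbers of peaks (Fisher's exact test p = 0.444 for both). The Tox region (chr4:7092963-7093358, 101604 bp from this transcription factor gene of T cell development) did, with 7.42, 14.8, 8.92 and 10.6 in Aged Sham and a peak in Aged Bleo 1 alone of its group (6.93), and it was open in 8 of the 9 young mice.

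Aged Bleo and Young Bleo mice differed mainly by regions that were open in the young. There were 114 desert regions called less often in Aged Bleo (3.91%, background 2.44%) and 8 more often (0.274%, background 0.123%). With equal numbers of peaks these were 43 (2.55%, background 0.947%) and 17 (1.01%, background 0.603%). Leaving out 1 mouse lowered them to as few as 19 and 1. Regions near Nr3c2 and Igfbp7 had a peak in the 4 Young Bleo mice and in no other mouse, so they entered the set through that group. Fold enrichment near Nr3c2, the mineralocorticoid receptor gene 554621 bp away (chr8:76347473-76347945, SOX letters), was 7.08, 7.19, 9.94 and 7.83. Near Igfbp7, a secreted binding protein of insulin-like growth factors made by ECs (chr5:77568169-77568535, 160307 bp away), it was 8.95, 8.01, 9.71 and 5.5. With equal numbers of peaks they had Fisher's exact test p = 0.167 and 0.444. Against Young Sham, Aged Bleo mice had 115 desert regions called less often (3.94%, background 3.01%) and 13 more often (0.446%, background 0.201%). With equal numbers of peaks these were 37 (2.19%, background 1.75%) and 29 (1.72%, background 0.972%), so most of the imbalance was not seen at equal list sizes. Leaving out 1 mouse raised them to as many as 193 and 62. The Robo2 region, 814097 bp from this guidance receptor gene (chr16:73597387-73598069, AP-1 and forkhead letters), had 7.14 to 9.73 in Young Sham, none in Aged Bleo and a peak in 1 Young Bleo and 1 Aged Sham mouse (5.5 and 4.95). It did not hold with equal numbers of peaks (Fisher's exact test p = 1).

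The desert regions that gained a peak in Young Bleo differed in some of their letters from those that lost one. SOX letters stood in 42 of the 234 gained windows (17.9%) and in none of the 78 lost ones, against 9.94% of all desert windows. AP-1 letters stood in 33 of the 234 (14.1%, against 12.1% of all desert windows). Forkhead letters stood in 6 of the gained (2.56%) and 12 of the lost windows (15.4%), against 6.48% of all desert windows, and GATA letters in 11 of the lost (14.1%, against 5.59%). CTCF letters were in 6 of the gained (2.56%) and none of the lost. ETS letters differed little, in 50 of the gained (21.4%) and 18 of the lost windows (23.1%), against 23.1% of all desert windows. Among the 175 regions lower in Aged Sham, CTCF letters stood in 18 (10.3%) and ETS letters in 27.4%, against 5.52 and 23.1% of all desert windows, and SOX letters in 7 (4%, against 9.94%). The gained regions lay a median of 202800 bp from a TSS and had a GC content of 44.5%. No test was run on these shares. Outside the deserts, the regions higher in Young Bleo held SOX letters in 11.4% and AP-1 letters in 18.4%, against 5.29 and 8.40% of all windows outside. Those lower in Aged Sham held CTCF letters in 12.6% and SOX letters in 4.80%, against 9.89 and 5.29%. The leanings to SOX and AP-1 in gains and to CTCF in losses were thus seen outside the deserts too.

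By mouse, the 290 desert regions with SOX letters showed the widest gap between the young groups. Their share called was 63.1, 55.9, 49.3, 54.5 and 40.7% in Young Sham (52.7% ± 8.32) and 70.0, 82.4, 82.4 and 65.5% in Young Bleo (75.1% ± 8.66), with no overlap. Aged Sham mice had 37.9, 56.9, 30.7 and 53.8% (44.8% ± 12.6), and Aged Bleo mice 77.2, 80.7, 49.3, 25.5 and 43.8% (55.3% ± 23.4). Of these 290 regions, 14.5% were in the set higher in Young Bleo (8.02% of all desert regions) and 2.41% in the set lower in Aged Sham (6% of all desert regions). The 353 regions with AP-1 letters also separated the young groups without overlap, at 47.9 to 61.2% in Young Sham and 62.6 to 77.1% in Young Bleo. The 189 regions with forkhead letters had no such gap, at 69.2% ± 8.77 in Young Sham and 65.6% ± 6.32 in Young Bleo. The 161 regions with CTCF letters were at 68.6% ± 3.89 in Young Sham and 47.2% ± 9.77 in Aged Sham, with 11.2% of them in the set lower in Aged Sham, against 6% of all desert regions. SOX factors include Sox17 and Sox18 of arterial and lymphatic ECs, but the letters do not tell which SOX protein, if any, bound.

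**Figure D4:**
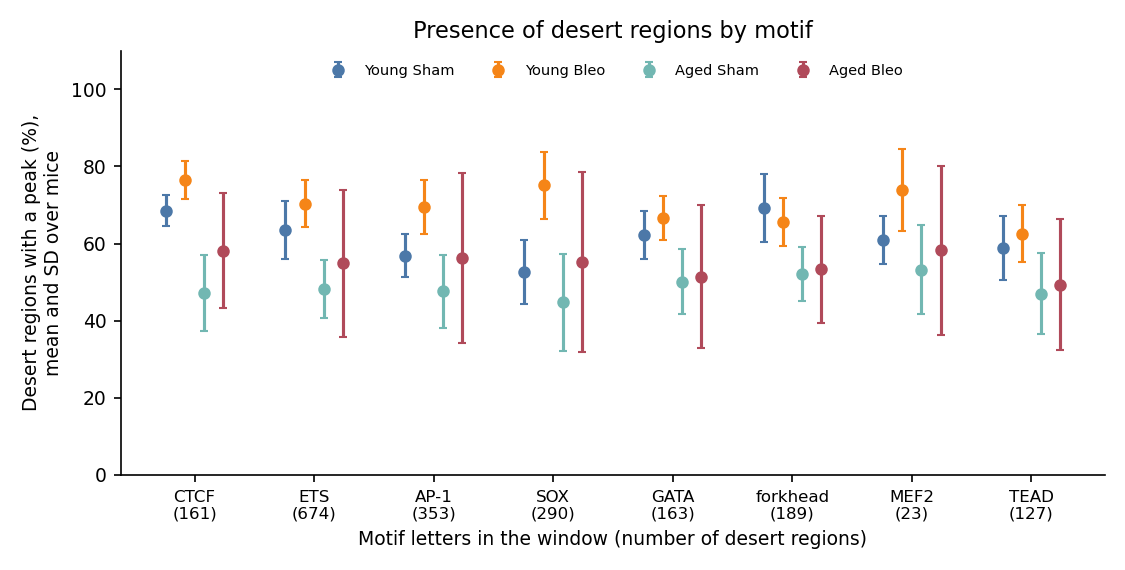
Share of desert regions with a peak by the motif letters in their window, in percent, as mean and SD over the mice of each group. The number of regions is given under each motif, and a region may count under several. Regions with SOX letters averaged 52.7% in Young Sham and 75.1% in Young Bleo, those with forkhead letters 69.2 and 65.6%.

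Peaks in deserts were weaker than elsewhere in every mouse. Strength was read as the percentile of a peak's fold enrichment within its own list, because fold enrichment is not scaled between lists. The median desert peak stood at percentile 42.2 ± 1.74 in Young Sham, 43.0 ± 1.97 in Young Bleo, 40.3 ± 2.66 in Aged Sham and 40.05 ± 4.04 in Aged Bleo. It was below the median of the other peaks in all 18 mice, by 9.75 percentile points on average (SD 2.67, exact sign-flip p = 7.63e-06). None of the 5 group differences passed (exact permutation p = 0.214 to 0.929). A typical desert peak rested on few reads, with a median pileup of 16 to 25 fragments by mouse against 26 to 34 for the other peaks, a number solved from the fold enrichment and the p-value.

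For the 17432 regions with a peak in all 18 mice, 615 of them desert regions, fold enrichment was compared on the log2 scale with limma after centring each list on its median. Between Young Bleo and Young Sham, 15 desert regions rose (2.44%, background 0.912%) and 25 fell (4.07%, background 1.31%) at an adjusted p of at most 0.05 over all 17432. Between Aged Sham and Young Sham, 8 rose (1.30%, background 0.43%) and 8 fell (1.30%, background 0.717%). Aged Bleo against Aged Sham had 5 up (0.813%, background 0.476%) and 6 down (0.976%, background 0.447%), and Aged Bleo against Young Bleo 3 up (0.488%, background 0.178%) and 1 down (0.163%, background 0.166%). Against Young Sham, Aged Bleo had 27 up (4.39%, background 7.73%) and 54 down (8.78%, background 4.76%). The share of called desert regions was above the background in both directions of the young contrast and of the contrast of the sham groups, and below it for the rises in Aged Bleo over Young Sham. With the lane as a term in limma, no region inside or outside the deserts passed in any of the 5 comparisons (0 of 17432, smallest adjusted p 0.0741). At an unadjusted p of at most 0.05 that fit gave 18 desert regions higher (2.93%, all regions 1.96%) and 40 lower (6.5%, all regions 3.02%) in Young Bleo, and 13 higher (2.11%, all regions 2.73%) and 35 lower (5.69%, all regions 3.53%) in Aged Sham. For Aged Bleo it gave 15 higher and 17 lower than Aged Sham (2.44 and 2.76%, all regions 4.18 and 2.52%), 31 and 68 against Young Bleo (5.04 and 11.1%, all regions 10.4 and 5.20%) and 10 and 39 against Young Sham (1.63 and 6.34%, all regions 4.87 and 3.26%). The limma values below are from the fit without the lane. For the up to 3 leading regions of each comparison and direction, all 28 differences kept their direction with the lane as a term, and 23 had an unadjusted p of at most 0.05.

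Regions that were weaker in Young Bleo than Young Sham lay near Steap4, Rasgrp1, Sall1, Adgrg6 and Klf4. The Steap4 region (chr5:7660684-7661326) is 299467 bp from this metalloreductase gene. It had a fold enrichment of 25.9, 23.7, 22.6, 23.4 and 21.5 in Young Sham, all higher than the 12.7, 15.3, 17.2 and 15.6 in Young Bleo. Aged Sham mice (15.5, 17.5, 16 and 14) and Aged Bleo mice (15.4, 20.7, 14.1, 10.9 and 14.5) were also below every Young Sham mouse. The log2 difference was -0.65 (SE 0.08, limma adjusted p = 4.24e-05) for Young Bleo and -0.50 (SE 0.08, limma adjusted p = 0.00353) for Aged Sham, both against Young Sham. With the lane as a term these were -0.52 (limma adjusted p = 0.372) and -0.29 (limma adjusted p = 0.825), and the second was among the 5 of 28 that missed the unadjusted threshold.

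A region 283356 bp from Rasgrp1, a Ras activator (chr2:117625964-117626501), had 22.6, 20.6, 17.9, 16.7 and 16.7 in Young Sham and 8.53, 8.55, 11.6 and 11.0 in Young Bleo. Aged Sham mice kept 14 to 18.8 and Aged Bleo mice had 9.84 to 15.6, so here the aged sham mice lay near the young sham mice. The log2 difference between the young groups was -0.95 (SE 0.13, limma adjusted p = 0.000118). A region 641681 bp from Sall1, a zinc-finger transcription factor (chr8:89685507-89686179, AP-1, ETS and forkhead letters), fell by 0.74 on the log2 scale in Young Bleo (limma adjusted p = 0.00129). A region 260571 bp from Adgrg6, an adhesion receptor (chr10:14284196-14284733), fell by 0.87 (limma adjusted p = 0.00174). The Klf4 region (chr4, 550202 bp from this flow-responsive transcription factor) averaged 14.4 in Young Sham, 8.66 in Young Bleo, 14.8 in Aged Sham and 12.2 in Aged Bleo, and fell by 0.81 (limma adjusted p = 0.00963). Of the 25 that fell, 7 held forkhead and 8 ETS letters, against 8.29 and 26.7% of the 615.

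Among the 15 that rose in Young Bleo, 4 stand apart by their sequence. The windows nearest Gm28590 (chr1:122357042-122357368), Myom2 (chr8:15519762-15520103), Gm20268 (chr1:102628100-102628427) and Arhgef26 (chr3:62159029-62159351) read, by eye, as stretches of the gene of the large ribosomal RNA, which every cell holds in many tandem copies. They were not matched to a ribosomal reference here. The words of the Myom2 window occurred at a median of 11 places in the assembly, and those of the other 3 windows at a median of 1. The Gm28590 and Arhgef26 windows shared a run of 28 bases, and the other 5 pairs of these windows runs of 7 to 10 bases. The Gm28590 region had 21.3, 18.2, 15.6, 17 and 17.4 in Young Sham and 29.9, 35.1, 33.7 and 28.4 in Young Bleo, with 19.5 to 28.3 in Aged Sham and 38.4, 44.3, 25.8, 21.9 and 25.3 in Aged Bleo (log2 difference between the young groups 0.81, SE 0.09, limma adjusted p = 5.94e-06). Whether reads from the repeated ribosomal genes have a part in these values was not tested. Leaving them out, 11 desert regions rose in Young Bleo. Among the other lists of rises, 2 of 8 (Aged Sham over Young Sham), 2 of 5 (Aged Bleo over Aged Sham) and 5 of 27 (Aged Bleo over Young Sham) were windows of this kind. These windows, 6 in all with those near Pex2 and Gm2237, were picked after their values were seen.

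Of the remaining 11, the strongest call was near B3gnt2, which encodes an enzyme that extends lactosamine chains on glycoproteins. This region (chr11:22719410-22719968, 140046 bp away, AP-1 letters) had 6.62, 5.06, 5.40, 7.63 and 7.62 in Young Sham and 12.7, 12.7, 14.5 and 11.4 in Young Bleo, without overlap (log2 difference 0.98, SE 0.15, limma adjusted p = 0.000344). Aged Sham mice had 6.43, 8.78, 9.91 and 7.36 and Aged Bleo mice 10.1, 12.2, 9.97, 7.29 and 7.48. Regions near Adarb2, of the RNA editing family (0.76, SE 0.14, limma adjusted p = 0.00323), and Hs3st3a1, a heparan sulfate sulfotransferase (0.75, SE 0.14, limma adjusted p = 0.00326), also rose without overlap. A region 110504 bp from Hif1a, the oxygen-regulated transcription factor, averaged 7.53 in Young Sham and 12.8 in Young Bleo (0.73, limma adjusted p = 0.0315), and its groups overlapped.

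With age, the region near Gm15501 rose and one on the Efnb2 side of chromosome 8 fell. The Gm15501 region (chr7:93424695-93425281, AP-1 and SOX letters) had 10.4, 11.2, 11.2, 12.9 and 9.94 in Young Sham, 10.4, 11.2, 10.7 and 12.7 in Young Bleo, 17.9, 25.1, 16 and 18.0 in Aged Sham and 17.6, 19.9, 19, 12.6 and 15.4 in Aged Bleo. Every Aged Sham mouse was above every young mouse (log2 difference to Young Sham 0.85, SE 0.11, limma adjusted p = 0.000347), and Aged Bleo exceeded Young Bleo by 0.68 (limma adjusted p = 0.00455). Regions near Fmr1 on chromosome X (0.91, limma adjusted p = 0.00199) and Thsd7b (0.92, limma adjusted p = 0.00844) also rose in Aged Sham without overlap with Young Sham.

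Falling with age, the region chr8:7060235-7060677, 1600786 bp from Efnb2, the ephrin-B2 gene of arterial ECs, had 20.02, 16, 17.2, 17.7 and 16.4 in Young Sham and 7.92, 8.78, 7.92 and 10.2 in Aged Sham (log2 difference -0.93, SE 0.16, limma adjusted p = 0.00486). It was also lower in Young Bleo (7.46, 13.2, 8.96 and 10.6) and Aged Bleo (5.77, 10.8, 9.84, 5.83 and 6.54), so every mouse outside Young Sham was below every Young Sham mouse. Regions near Rgs18 (-0.85, limma adjusted p = 0.00682), Xxylt1 (-0.77, limma adjusted p = 0.00883) and Jcad, a gene of endothelial junctions (-0.61, limma adjusted p = 0.0282), fell as well. A region near Gm3411 on chromosome 14 fell by 1.34 (limma adjusted p = 0.000116), and its window was multi-copy (median of 6 places).

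In aged mice, the region near Fermt1, the integrin activator kindlin-1, was weaker in the Bleo group. This region (chr2:133141351-133142004, 195642 bp away) carries SOX and forkhead letters that overlap. It had 10.8, 9.22, 12.5 and 10.1 in Aged Sham and 4.23, 4.68, 7.69, 4.95 and 5.86 in Aged Bleo, without overlap (log2 difference -0.96, SE 0.19, limma adjusted p = 0.0223). In young mice the levels were 10.5, 12.5, 10.9, 10.1 and 6.94 for Sham and 5.22, 6, 5.23 and 6.59 for Bleo. The call in aged mice was lost without Aged Sham 1 or 3 (limma adjusted p = 0.0590 and 0.0714) and with the lane as a term (log2 difference -0.94, limma adjusted p = 0.697). Near Rab38, a small GTPase of secretory organelles, Aged Bleo mice were lower than Young Bleo mice (8.85, 9.82, 6.17, 4.86 and 6.08 against 14.6, 13.3, 11.9 and 11.8, log2 difference -0.78, limma adjusted p = 0.00455). The counts of 5 and 6 for Aged Bleo against Aged Sham fell to 0 and 0 without Aged Sham 1, to 0 and 1 without Aged Sham 2 and to 1 and 0 without Aged Sham 3. Those for Aged Bleo against Young Bleo rose to 22 and 19 without Aged Bleo 1 and to 21 and 18 without Aged Bleo 2. All regions rose with them, so that the higher ones (3.58 and 3.41% of the 615) were below the share of all regions (4.61 and 8.24%) and the lower ones (3.09 and 2.93%) above it (1.51 and 1.89%).

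**Figure D5:**
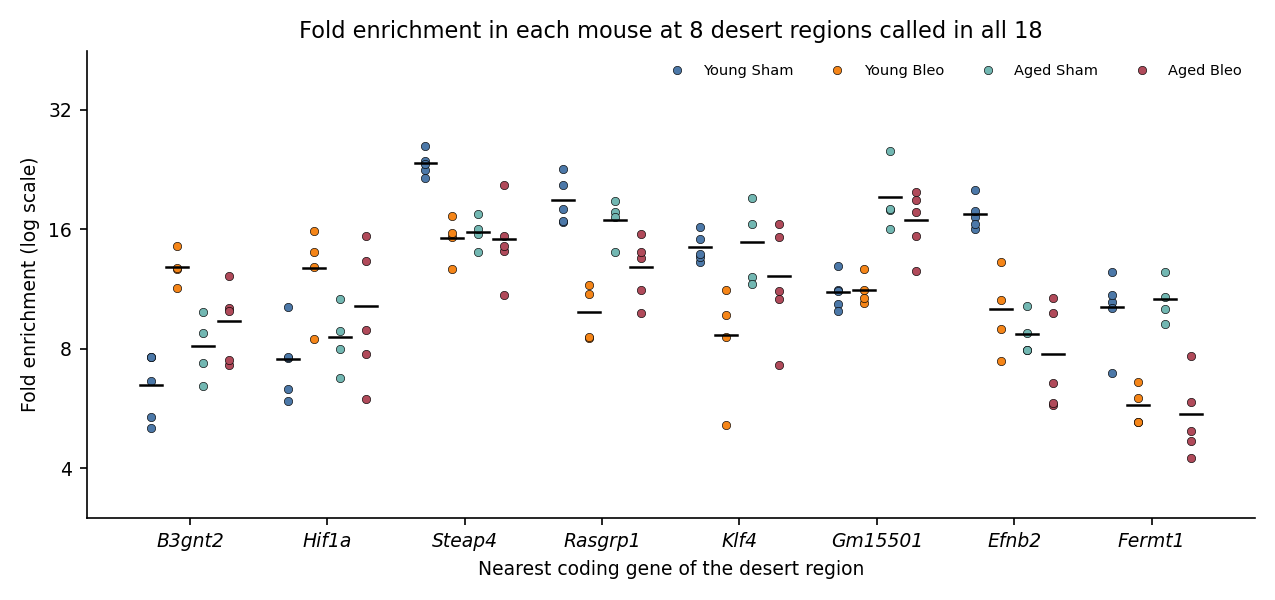
Fold enrichment in each mouse, on a log scale, at 8 desert regions with a peak in all 18 mice, named by their nearest coding gene. Points are mice and bars group means. Steap4 and Efnb2 regions are highest in Young Sham, B3gnt2 in Young Bleo, and Gm15501 in the aged groups, with 16 to 25.1 in Aged Sham.

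Most of the strongest regions that stayed open in every mouse varied little between mice. The Gap43 region (chr16:42190095-42190935, 150136 bp from this growth cone gene, CTCF and ETS letters) had fold enrichments of 24.5 to 36.5 over the 18 mice. The Myt1l region (chr12:29290864-29291443, CTCF letters) ranged from 23.4 to 31.2, and the Akr1e1 region (chr13:4771310-4771970, near an aldo-keto reductase gene) from 23.6 to 31.7. The exception was the Myom2 region named above, at 19.7 to 57.9. Of the 10 strongest, 4 held CTCF letters and 4 were multi-copy, with the Gm15319 region on chromosome 8 counted in both. The region on chromosome 12 near Rab10 lay wholly in repeat, with a median of 76 places.

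A minority of desert regions lay in clusters of 3 or more. Joining neighbours within 50 kb gave 1534 clusters, of which 932 were single regions, and 296 held 3 or more, together 1374 of the 2918 regions. The largest lay on chromosome Y (50 regions, of which 41 were multi-copy). Next was a cluster of 15 near Chd7, a chromatin remodeler (chr4:8911282-9136232). Of its regions 64.0% ± 7.60 were called in Young Sham, 78.3% ± 11.4 in Young Bleo and 63.3% ± 11.5 in Aged Sham. A cluster of 13 near Bmp7, a BMP ligand (chr2:172728235-172832104), had 72.3% ± 14 in Young Sham and 36.5% ± 13.1 in Aged Sham. The cluster of 12 near Pde3a, a phosphodiesterase (chr6:140913044-141118627), had 85.0% ± 13.7, 70.8% ± 10.8 and 47.9% ± 12.5 in these 3 groups. Of its 12 regions 4 were lower in Aged Sham, against 2 in the Bmp7 and 0 in the Chd7 cluster and 6% of all desert regions. By nearest coding gene, Gm20826 on chromosome Y had 74 desert regions, 64 of them multi-copy, and Zfp608 had 23. Efnb2 and Marcks each had 16, and Triqk and Gm21292, the latter on chromosome Y, each had 14. Higher in Young Bleo were 1 of the Gm20826, 4 of the Zfp608, 4 of the Efnb2, 3 of the Marcks, 0 of the Triqk and 1 of the Gm21292 regions, against 8.02% of all desert regions. The Triqk regions were called at 68.6% ± 17.9 in Young Sham and 57.1% ± 8.25 in Young Bleo. The Zfp608 regions were called at 53.9% ± 10.5 in Young Sham, 72.8% ± 14.4 in Young Bleo and 40.2% ± 19.2 in Aged Sham.

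Desert regions were also grouped by 3 lists of nearest genes, without a test between the lists. Of 49 EC transcription factor genes, 25 were the nearest coding gene of a desert region, with 99 regions in all and 25 (25.3%) open in every mouse. For 49 developmental transcription factors these were 23 genes, 68 regions and 9 (13.2%), and for 51 lung EC signal and marker genes 16 genes, 66 regions and 9 (13.6%), against 21.1% of all desert regions, so the first list lay a little above that share and both others below it. In Young Bleo against Young Sham, 6 of the 99, 9 of the 68 and 5 of the 66 were higher, against 8.02% of all desert regions, and 2, 4 and 1 were lower, against 2.67%. In Aged Sham against Young Sham 2, 3 and 7 were lower (2.02, 4.41 and 10.6%), against 6% of all desert regions, and none higher.

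From Young Sham to Young Bleo, the share called went from 56.8 to 64.4% in the first list, from 55.3 to 68.8% in the second and from 60.3 to 64.8% in the third, against 59.5 to 67.8% of all desert regions. The genes that follow were picked from these lists after their values were seen. Regions near Foxp1 (4 regions) were called at 30% ± 11.2 in Young Sham and 75% ± 20.4 in Young Bleo, and those near Ets1 (5 regions) at 36.0% ± 8.94 and 65.0% ± 34.2. Near Jag1, the Notch ligand (10 regions), the levels were 28.0% ± 4.47 and 60.0% ± 25.8, near Bmp2 (5 regions) 36.0% ± 8.94 and 70.0% ± 34.6, and near Irx3 (6 regions) 46.7% ± 7.45 and 91.7% ± 9.62. The 6 regions near Tbx3 went the other way, at 50% ± 11.8 and 25% ± 9.62. Regions near Klf4 (12 regions, 61.7 and 62.5%) and Sox17, the arterial SOX factor (4 regions, 80.0 and 75%), differed little, and the regions near Meis2 and Hey2 were open in all mice. Near Calcrl, the receptor for adrenomedullin (8 regions), levels were 75% ± 12.5 in Young Sham and 46.9% ± 18.8 in Aged Sham, and near Nrp1, a VEGF co-receptor (8 regions), 62.5% ± 19.8 and 34.4% ± 21.3. These levels are descriptions over few regions, and no list or gene was tested as a set.

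Chromosome Y carried 101 of the 2918 desert regions, which is 87.8% of the 115 regions on it, and 88 of the 101 were multi-copy. Read pairs were kept with only 1 uniquely mapped end, so counts in multi-copy windows are uncertain. On average 43.5 of the 101 had a peak in Young Bleo and 33.2 in Young Sham mice (exact permutation p = 0.0238, adjusted 0.119). Chromosome X held 73 desert regions, chromosome 18 had 164 (10.4% of its regions) and chromosome 19 only 42 (2.85%). The 2 regions farthest from any TSS lay on chromosome Y in windows that were wholly repeat, and they were called in 2 and 4 mice. The third was on chromosome X, 1757273 bp from Diaph2 (chrX:131506866-131507163, AP-1 and GATA letters), and was called in 4 Young Sham mice (5.76 to 6.87), in Young Bleo 3 (5.23) and in no aged mouse.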

How the data were processed

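ATAC-seq was done on sorted lung ECs of 18 mice, 1 library and 1 peak list per mouse. The authors mapped read pairs to mm10 with BWA, kept pairs with 1 or both ends uniquely mapped, removed duplicates and called peaks per mouse with MACS2. Each deposited list gives, per peak, the fold enrichment (a ratio of pileup to local background), the −log10 p-value and the −log10 q-value, and the deposited score column was not used. The lists hold no read counts and no read depth, and were used as deposited, without scaling. A peak in a region is a call above the authors' threshold, so no peak does not show closed chromatin.

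Peaks were merged (overlap of at least 1 bp), regions in at least 2 mice were kept, and 19 mitochondrial peaks in 5 lists were left out. Distances used the 45756 NM and NR transcripts of RefSeq GRCm38.p6, and 73497 predicted transcripts were added in an alternative. Shares and medians per mouse were compared by exact permutation on the absolute difference in means (both sides), with Benjamini-Hochberg adjustment over the 5 comparisons, and presence per region with Fisher's exact test over all 47338 regions. Strength was compared with limma (version 3.58.1 in R 4.3.3, with trend, all 4 groups in 1 model) over 17432 regions. Within-mouse differences used a sign-flip test. Whole fragments per peak were solved from fold enrichment and p-value (at least 99.984% of the peaks of a list within 0.01 of the −log10 p). Python 3.11.15, numpy 2.4.6, pandas 2.3.3 and scipy 1.17.1 were used, and the tests were checked on simulated data. Counting intervals were not computed, because the lists give no read depth.

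The regions, gene lists and motifs were chosen with earlier results of these data known. Regions named for presence were the 10 strongest open in all mice, the 3 with the smallest Fisher p in each comparison and direction (ties broken by the difference in percentile), those in the genes and clusters with the most desert regions, those near listed genes, and the 3 farthest from a TSS. Not all of them are described. Regions named for strength, the motif classes by group and the windows read as ribosomal were picked after their values were seen. Alternatives were another peak threshold, equal numbers of peaks, a 50% overlap, distances of 50 and 200 kb, 3 mice in place of 2, predicted transcripts, autosomes only, quantile normalization, the −log10 p as strength, each mouse left out, a replicate block and, added later, the lane as a term (permuted within lanes for values per mouse). Nothing in the labels says that equal replicate numbers mark shared mice or batches, and p-values measure the spread between mice.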

Additional observations from a re-analysis of the deposited data

Results flagged for a closer look

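Of 88 groups of values examined for a mouse far from the others, 1 stood out. At the region near Thsd7b (chr1:128983238-128983759), whose fold enrichment was higher in Aged Sham, Young Sham 2 had 7.96 while the other 4 Young Sham mice had 8.69 to 8.99. Its gap to the nearest mouse was 0.711 of the group's range, against a critical value of 0.710 for 5 samples. About 1 in 20 groups passes this rule by chance, so 1 of 88 is fewer than chance gives. Without that mouse the region kept its call.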

How the results depend on the processing

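A list shows only peaks above the authors' threshold, desert peaks rest on 16 to 25 fragments in the median, and groups of 4 and 5 mice limit the smallest p, so counts of calls move easily, and no cause was tested. Among group differences in share, in desert minus other regions and in percentile, those that changed direction are the following. With each list held to its 21050 strongest peaks, the share of desert regions called differed by 0.269 points between Aged Sham and Young Sham, and by 1.59 between Aged Bleo and Young Sham. Desert minus other regions between Aged Sham and Young Sham was 0.556 with equal peaks, 1.27 at 200 kb, 0.791 with predicted transcripts and 2.40 against other intergenic regions. The percentile difference of Aged Bleo from Aged Sham turned to 1.47 with equal peaks, 0.561 on autosomes, 0.428 at 50 kb, 0.202 at 200 kb, 0.525 by −log10 p and 0.150 with the replicate block. With the lane as a term, the share of Aged Bleo against Aged Sham turned to -0.864, desert minus other of Aged Sham against Young Sham to 0.217 and the percentile of Young Bleo against Young Sham to -1.83. Without a change of direction, the Young Bleo minus Young Sham share came to pass at 3.28 points with equal peaks and at 9.91 with −log10 q of at least 5 (exact permutation, adjusted p = 0.0397 for both).

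The young contrast in desert minus other regions (5.53 points) lost its call with the p as double the smaller tail (5.53), against other intergenic regions (3.89) with the replicate block (5.56) and with the lane as a term (6.98, where p cannot go below 0.167). The block was a hint only: correlations of deviations between equal replicate numbers ran from -0.274 to 0.314, so the numbers do not pair the mice. The single-copy, other-intergenic, smaller-tail and lane alternatives were chosen after seeing the data.

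The counts of desert regions that differed in presence are given as higher and lower. For Aged Sham against Young Sham (6 and 175) they were 27 and 31 with equal peaks, 18 and 330 at 50 kb, and 3 and 62 with predicted transcripts. The sets differ in size, with 5635 desert regions at 50 kb, 1225 at 200 kb, 1083 with predicted transcripts and 1686 with a peak at equal list sizes, and their counts move with it. There were 10 higher with −log10 q of at least 5, 12 with fold enrichment of at least 5 and 11 with 50% of the region covered, and 70 lower at 200 kb. For Young Bleo against Young Sham (234 and 78) they were 384 and 145 at 50 kb, 121 and 31 at 200 kb, 98 and 34 with predicted transcripts, and 130 and 68 with equal peaks. As shares, the higher ones were 6.81, 9.88, 9.05 and 7.71% (8.02% as deposited) against 3.98, 3.98, 3.98 and 3.26% of all regions. For Aged Bleo against Aged Sham (21 and 11) they were 37 and 26 at 50 kb, 11 and 6 at 200 kb, 8 and 5 with predicted transcripts, but 9 and 14 with equal peaks and 15 and 25 with 50% covered, so the balance turned in both, as it did without Aged Sham 4 (5 and 6). For Aged Bleo against Young Bleo (8 and 114) they were 17 and 43 with equal peaks, 4 and 211 with 50% covered, 5 and 58 at 200 kb, 5 and 43 with predicted transcripts, and 209 lower at 50 kb. For Aged Bleo against Young Sham (13 and 115) they were 29 and 37 with equal peaks, 25 and 207 at 50 kb, 8 and 45 at 200 kb, 6 and 48 with predicted transcripts, and 203 lower with 50% covered. The last alternatives tested percentiles with limma at an unadjusted p, in the same order of comparisons: 36 and 557, 513 and 285, 122 and 78, 49 and 547, 126 and 534, and with the replicate block 28 and 622, 439 and 323, 203 and 66, 78 and 445, 147 and 545, and with the lane as a term 73 and 236, 206 and 110, 11 and 93, 20 and 387, 43 and 174. Over these 13 alternatives, the desert share called was above that of all regions in 13 for both directions of the young contrast and for the losses in Aged Sham. All regions include promoters. As deposited, the losses in Aged Sham were 6% of desert regions and 6.3% of intergenic regions 10 to 100 kb from a TSS. For the other classes of direction, the desert share was above that of all regions less often or as often. The desert share was above in 10 for the gains in Aged Sham, in 10 and 6 for Aged Bleo higher and lower than Aged Sham, in 12 and 13 against Young Bleo and in 13 and 10 against Young Sham.

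Strength calls, in the same order, were 22 and 23, 52 and 68, 26 and 25, 8 and 6, and 54 and 87 when −log10 p replaced fold enrichment, and 0 in every comparison with the lane as a term. With −log10 p the 26 and 25 of Aged Bleo against Aged Sham (4.23 and 4.07%) lay below all regions (8.48 and 4.76%), the reverse of the fold enrichment result. The young contrast stayed above all regions (8.46 and 11.1% against 6.45 and 5.73%), as did Aged Sham against Young Sham (3.58 and 3.74% against 2.52 and 1.83%). Aged Bleo against Young Bleo had 1.30 and 0.976% (all regions 0.860 and 0.407%). Against Young Sham, Aged Bleo had 8.78 and 14.1% (all regions 15.4 and 9.96%). For Aged Bleo against Aged Sham they were 1 higher with quantile normalization and 3 and 3 with the replicate block, so with counts this small no balance is read. At an adjusted p, limma on percentiles with the block gave 6 and 104 (0.206 and 3.56%, all regions 0.0401 and 2.59%), 87 and 85 (2.98 and 2.91%, all regions 1.09 and 1.72%), 0 and 0, 0 and 11, and 11 and 174 (0.377 and 5.96%, all regions 0.365 and 4.74%). For Aged Bleo against Aged Sham 203 and 66 passed unadjusted (6.96 and 2.26%), below all regions (7.23 and 2.39%). The 11 lower in Aged Bleo than Young Bleo (0.377%, all regions 0.199%) stand against 42 without the block.

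Leaving out 1 mouse at a time, the share called ranged from -16.4 to -11.0 (Aged Sham against Young Sham), 5.83 to 10.3 (Young Bleo against Young Sham), 2.54 to 13 (Aged Bleo against Aged Sham), -19.6 to -9.11 (against Young Bleo) and -11.2 to -0.740 (against Young Sham). Desert minus other ranged from 5.04 to 5.96 for the young contrast, 2.54 to 4.55 for Aged Bleo against Aged Sham and 1.47 to 3.48 against Young Sham, and the percentile of Aged Bleo against Aged Sham from -1.43 to 1.15. Presence counts, in the order of comparisons above, ranged higher from 2 to 6, 77 to 234, 2 to 21, 1 to 8 and 13 to 62, and lower from 37 to 175, 16 to 78, 1 to 11, 19 to 114 and 115 to 193. Strength counts ranged higher from 5 to 14, 8 to 19, 0 to 9, 2 to 22 and 20 to 32, and lower from 5 to 12, 13 to 33, 0 to 10, 1 to 19 and 35 to 57.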
